A study of Mus musculus with 53 samples.

Results

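The genes described here are 6 haematopoietic transcription factors and cofactors, Hoxa9, Hoxa7, Mecom, Cbfb, Hhex and Mllt3, taken by symbol from the 14833 genes listed for single T1 pre-HSCs. They are the members of an earlier transcription factor list whose rows stand in the alphabetical part of the table. They were chosen by symbol and selected on their detection, level and co-expression in these same cells, so levels and differences between genotypes are given as descriptions, with no test. T1 pre-HSCs are type 1 precursors of haematopoietic stem cells (HSCs), sorted here from E11 mouse embryos, out of the AGM region around the dorsal aorta. The 12 KO cells (cells 1 to 12) carried the genotype mH19 delta_DMR/+, in which the H19 DMR, the differentially methylated region of that imprinted locus, is deleted, and the 9 wildtype cells used (cells 13 to 22 without 19) carried mH19 flDMR/+, so the cells called wildtype also bear a modified allele. What drove the deletion, the strain of the embryos, their number and the sorting days were not stated by any source used here. Each genotype therefore counts as 1 sample and cells are not replicates of it. Spreads below are SDs or ranges over cells.

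These proteins have each been tied to blood formation, through separate roles. HOXA7 and HOXA9 are homeodomain proteins encoded side by side in the HoxA cluster. They bind DNA with partners of the PBX and MEIS families, and HOXA9 in particular sustains stem and progenitor cells. MECOM (EVI1) is a zinc finger protein needed for HSC self-renewal, HHEX is a homeodomain repressor that acts in early endothelium, liver and blood, and CBFB is the subunit that steadies RUNX proteins on DNA without binding DNA itself. MLLT3 (AF9) reads acylated histones and joins the super elongation and DOT1L complexes to chromatin. In human cord blood it has been tied to HSC maintenance.

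Of the members, Mecom, Hhex and Mllt3 are the ones that most often shared cells below, and Hoxa7 is the one with its highest values elsewhere. The 250 bases ahead of their RefSeq starts (build GRCm38.p6, the assembly that mm10 names) are shown 5' to 3' on the gene's strand. Capitals mark a CCAAT box, written CCAAT or ATTGG on the other strand, or the composite HOX-PBX site TGATNNAT, searched on both strands. Mecom has a pair of annotated starts, one for the long MDS1-EVI1 form and one for EVI1, and gene-level values do not tell which was used.
Mecom, upstream start (chr3:30509760-30510009, minus strand): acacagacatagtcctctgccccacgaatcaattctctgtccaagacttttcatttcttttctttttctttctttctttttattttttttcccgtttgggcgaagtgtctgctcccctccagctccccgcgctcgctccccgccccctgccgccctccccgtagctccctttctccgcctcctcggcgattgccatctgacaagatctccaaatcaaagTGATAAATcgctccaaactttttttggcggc
Mecom, downstream start (chr3:30013205-30013454, minus strand): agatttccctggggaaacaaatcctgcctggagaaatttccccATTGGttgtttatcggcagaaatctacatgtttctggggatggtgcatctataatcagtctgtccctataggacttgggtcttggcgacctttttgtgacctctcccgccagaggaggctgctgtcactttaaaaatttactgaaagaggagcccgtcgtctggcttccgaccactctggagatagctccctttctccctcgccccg
Hhex (chr19:37434591-37434840, plus strand): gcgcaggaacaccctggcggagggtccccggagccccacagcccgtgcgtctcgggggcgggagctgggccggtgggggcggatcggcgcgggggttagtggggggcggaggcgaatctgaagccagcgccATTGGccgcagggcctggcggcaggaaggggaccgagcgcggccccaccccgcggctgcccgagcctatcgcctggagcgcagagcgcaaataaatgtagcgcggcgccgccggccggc
Mllt3, upstream start (chr4:88033408-88033657, minus strand): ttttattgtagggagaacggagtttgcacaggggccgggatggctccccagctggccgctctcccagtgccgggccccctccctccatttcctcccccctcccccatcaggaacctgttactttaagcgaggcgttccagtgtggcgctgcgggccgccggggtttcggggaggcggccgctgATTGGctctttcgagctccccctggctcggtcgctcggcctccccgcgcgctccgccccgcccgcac
Hoxa7 (chr6:52218574-52218823, minus strand): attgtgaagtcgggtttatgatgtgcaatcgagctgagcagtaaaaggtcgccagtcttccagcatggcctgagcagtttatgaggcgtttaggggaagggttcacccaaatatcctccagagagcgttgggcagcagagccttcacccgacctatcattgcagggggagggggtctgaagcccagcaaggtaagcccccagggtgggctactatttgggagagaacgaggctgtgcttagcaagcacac
The CCAAT box, present ahead of Hhex, of the Mllt3 start shown and of the downstream Mecom start, occurs in 33.8% of all 32851 windows of this length, and TGATNNAT, present ahead of the upstream Mecom start, in 7.68%. The GATA motif AGATAA (9.99% of windows), the RUNX motif TGTGGT (14.0%) and the ETS motif CCGGAA (12.0%) had no match in these 5 windows. Across all windows the median was 6 CpG dinucleotides. The Hhex window held 32 CpG dinucleotides, more than 95.4% of all windows, and the Mllt3 window shown 23. The upstream and downstream Mecom windows held 14 and 8, and the Hoxa7 window 7. Of the windows not shown, the other Mllt3 start held 4 and Cbfb 25. The Hoxa9 window, not shown, held 3 CpG and no match to any of these motifs. A match is a description of the letters and not a binding site.

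By the RefSeq annotation of this build, Hoxa7 lies on chromosome 6 at 52215623 to 52218573 and Hoxa9 at 52223097 to 52227370, 4523 bases apart. Mecom lies on chromosome 3 at 29951296 to 30509759, Cbfb on chromosome 8 at 105170674 to 105217989, Hhex on chromosome 19 at 37434841 to 37440731 and Mllt3 on chromosome 4 at 87769925 to 88033407. Other annotated RNAs lie inside Mecom (among them the antisense gene Mecomos), Cbfb and Mllt3. Whether reads were counted by strand is not given in the sources used here, so reads of such neighbours cannot be told apart from those of the member.

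The values are RPKM, read density per transcript length and per mapped reads, and the depth behind them is unknown. A gene is called detected in a cell at 1 RPKM or more, and a value of exactly 0 can be a failed estimate. KO cells had 1517 to 8408 detected genes and wildtype cells 2067 to 5716. H19 was at 0 to 186 RPKM in KO cells and at 231 to 1260 RPKM in wildtype cells, which do not overlap. The housekeeping gene Actb spanned 473 to 3000 RPKM in KO cells and 710 to 2350 RPKM in wildtype cells, and Rplp0, a ribosomal protein gene, at 307 to 1840 and 308 to 1590 RPKM. Around the rows of all 6 members, each of the 21 cells was in step with the others at offset 0 in windows of 500 rows. Wildtype cell 19 was in step in 4 of 6 such windows and is left out. Among 682 pairs of values within the members' rows, 0 shared their digits (at least 5 significant digits).

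Before the members are described, 6 of the 21 cells have to be set apart, because they go against the label of their sort. Of 10 genes of the T1 pre-HSC sort and identity (Cdh5, Pecam1, Kit, Procr, Itga2b, Ptprc, Tek, Esam, Neurl3 and Cd47), KO cells 1, 3, 9 and 11 and wildtype cells 13 and 14 had 1 or 2 at 1 RPKM or more. The other 15 cells had 4 to 10. Ptprc encodes CD45, which T1 pre-HSCs are defined as lacking, so its detection is not a sign of T1 identity. It reached 1 RPKM only in KO cell 2 (14.0 RPKM) and wildtype cell 22 (18.4 RPKM), the cells that held all 10. The summed level of the 10 genes was 3.47 to 104 RPKM in the 6 cells, the highest through Itga2b in KO cell 11, and 294 to 1210 RPKM in the other 15. Procr, the protein C receptor that marks pre-HSCs, was at 0 to 4.30 RPKM in the 6 cells and detected in 3 of them. In the others it was at 0.748 to 635 RPKM and detected in 14, so the ranges overlap. The 6 cells had 1517 to 4051 detected genes, a range that overlaps the 1796 to 8408 of the others. The mesenchymal list, of which all 10 genes are listed, summed to 10.8 to 1080 RPKM in the 6 cells with 1 to 7 genes detected in each. In the others it summed to 0.00104 to 119 RPKM with 0 to 3 genes detected, the highest sum in wildtype cell 20. Both ranges overlap those of the 6 cells. Over the genotypes this list summed to 0.00364 to 1080 RPKM in KO cells and 0.00104 to 254 RPKM in wildtype cells, with Pdgfra under 1 RPKM in all 21. Of the erythroid list 8 of 11 genes are listed, summing to at most 148 RPKM in a KO cell and 239 RPKM in a wildtype cell, and 3 neural crest genes were at 0 in all cells. Of the myeloid list 5 of 10 genes are listed, summing to at most 876 RPKM in a KO cell and 1950 RPKM in a wildtype cell, with C1qb at 0. Gpc3, a heparan sulfate proteoglycan of embryonic mesoderm chosen after its values were seen, was at 107 to 548 RPKM in the 6 cells and at most 25.4 RPKM in the other 15. The part that these cells play in the results was not tested beyond leaving them out, and member levels and differences are given with and without them. The split was made after the values were seen and leaves 8 KO and 7 wildtype cells.

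**Figure D1:**
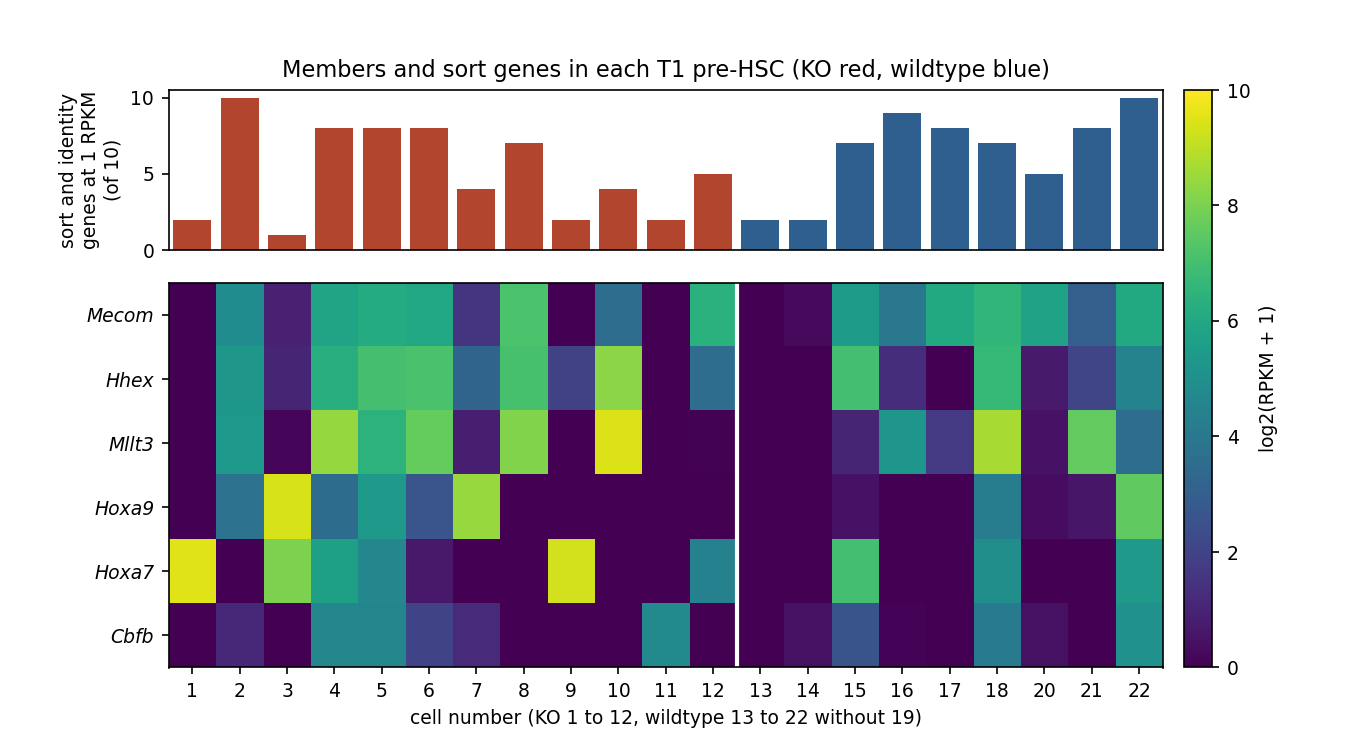
Upper panel: number of the 10 sort and identity genes at 1 RPKM or more in each cell (KO red, wildtype blue). Lower panel: log2(RPKM + 1) of each member in the same cells. Mecom, Hhex and Mllt3 are dark in KO cells 1, 3, 9 and 11 and wildtype cells 13 and 14, while Hoxa7 is brightest in KO cells 1 and 9.

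Mecom was detected only in cells that carried 4 or more sort genes. How many of all genes separate the same cells was not counted, and Gpc3 did so in the other direction (107 RPKM or more in the 6 cells, at most 25.4 RPKM in the other 15). Mecom reached 1 RPKM in each of the 8 KO and 7 wildtype cells with 4 or more sort genes and in 0 of the 6 cells with fewer, where its highest value was 0.908 RPKM in KO cell 3. Over all cells it was at 0.000880 to 141 RPKM with a median of 19.5 RPKM in KO cells, and at 0.00663 to 93.8 RPKM with a median of 44.0 RPKM in wildtype cells. The highest cells were KO cell 8 at 141 RPKM, wildtype cell 18 at 93.8 RPKM and KO cell 12 at 82.2 RPKM, and the genotypes overlapped over most of their range. It was detected in 8 of 12 KO cells (66.7%, exact Clopper-Pearson 95% interval 34.9 to 90.1%) and in 7 of 9 wildtype cells (77.8%, 40.0 to 97.2%). These intervals, here and below, cover counting error over cells only. On the log2(RPKM + 1) scale KO cells averaged 3.53 ± 2.85 (SD, 12 cells) and wildtype cells 4.14 ± 2.53 (SD, 9 cells), so the difference, KO minus wildtype, was -0.61. With the 6 cells left out the means were 5.18 ± 1.83 in KO (SD, 8 cells) and 5.28 ± 1.28 in wildtype (SD, 7 cells), and the difference was -0.10, or -0.47 to 0.42 with any 1 of the 15 cells left out. On the log2 scale Mecom had the narrowest spread of the members in the remaining wildtype cells (SD 1.28), at 7.23 to 93.8 RPKM.

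Hhex was higher in KO cells on average, by more without the 6 cells than with them. With all 21 cells its difference was the largest of the members, but this order was not firm. Hoxa9 exceeded it in the shared range of detected genes (2.11 against 1.44 for Hhex). Hoxa7 exceeded it without KO cell 10 (1.92 against 1.39) and with a pseudocount of 10 (1.02 against 0.96). It also did so without KO cell 2, 6, 7 or 8 and without wildtype cell 22 (2.02 against 2.01). It was at 0 to 303 RPKM with a median of 24.7 RPKM in KO cells, and at 0 to 129 RPKM with a median of 1.47 RPKM in wildtype cells. KO cells 10, 6 and 8 were highest, at 303, 138 and 135 RPKM, while wildtype cells 15 and 18, at 129 and 102 RPKM, reached into the upper range of the KO cells. Hhex was detected in 10 of 12 KO cells (83.3%, 51.6 to 97.9%) and in 5 of 9 wildtype cells (55.6%, 21.2 to 86.3%). KO cells averaged 4.23 ± 3.00 and wildtype cells 2.48 ± 2.86 on the log2 scale, and the difference of 1.76 lay within the SD of each genotype. Without the 6 cells Hhex was detected in 8 of 8 KO cells, the lowest at 8.47 RPKM, and in 5 of 7 wildtype cells, where the lowest was at 0. The KO cells then averaged 5.98 ± 1.80 and the wildtype cells 3.19 ± 2.88, with a difference of 2.80. Leaving out any 1 of these 15 cells gave 2.27 (without wildtype cell 17) to 3.44 (without wildtype cell 15).

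Mllt3 had the largest SD over cells in both genotypes and was also undetected in the 6 cells. It was at 0 to 716 RPKM with a median of 20.0 RPKM in KO cells, and at 0 to 418 RPKM with a median of 2.19 RPKM in wildtype cells. KO cell 10 at 716 RPKM, wildtype cell 18 at 418 RPKM and KO cell 4 at 341 RPKM were highest, so both genotypes held high cells. Its highest value in the 6 cells was 0.113 RPKM, against 12 of the other 15 cells at 1 RPKM or more. It was detected in 6 of 12 KO cells (50%, 21.1 to 78.9%) and in 6 of 9 wildtype cells (66.7%, 29.9 to 92.5%), so at this cutoff the KO share was lower although the KO mean was higher. At 5 RPKM the shares were 50% in KO and 44.4% in wildtype cells. Among the detected cells the median was 236 RPKM for KO and 24.0 RPKM for wildtype. KO cells averaged 3.87 ± 4.00 and wildtype cells 3.15 ± 3.33 on the log2 scale, a difference of 0.72 that was 0.21 without KO cell 10 alone. When the 6 cells were left out, KO cells averaged 5.79 ± 3.54 and wildtype cells 4.05 ± 3.25, and the difference was 1.74. It ranged from 1.15 without wildtype cell 20 to 2.56 without KO cell 12.

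Hoxa7 had its highest values in cells that lacked the sort genes. KO cells 1, 9 and 3 were at 740, 636 and 256 RPKM, whereas the highest of the 15 cells with sort genes, wildtype cell 15, was at 130 RPKM. Over all cells Hoxa7 was at 0 to 740 RPKM with a median of 10.4 RPKM in KO cells, and at 0 to 130 RPKM with a median of 0 in wildtype cells. It was detected in 6 of 12 KO cells (50%, 21.1 to 78.9%) and in 3 of 9 wildtype cells (33.3%, 7.49 to 70.1%). KO cells averaged 3.52 ± 3.89 and wildtype cells 1.93 ± 2.94 on the log2 scale, with a difference of 1.60 that was 1.05 without KO cell 1 alone. Among the other 15 cells detection was 3 of 8 for KO and 3 of 7 for wildtype. There KO cells averaged 1.93 ± 2.51 and wildtype cells 2.48 ± 3.15, and the difference was -0.55. Its sign rests on wildtype cell 15, without which it was 0.21, and without KO cell 4 it was -1.09. Wildtype cells 13 and 14, which also lacked the sort genes, were at 0, as was KO cell 11.

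Hoxa9, the neighbour of Hoxa7 in the cluster, was highest in KO cell 3, one of the 6, at 666 RPKM, then in KO cell 7 at 355 RPKM and wildtype cell 22 at 185 RPKM. Over all cells it was at 0 to 666 RPKM with a median of 2.58 RPKM in KO cells, and at 0 to 185 RPKM with a median of 0.268 RPKM in wildtype cells. It was detected in 6 of 12 KO cells (50%, 21.1 to 78.9%) and in 2 of 9 wildtype cells (22.2%, 2.81 to 60.0%). This order turned at a cutoff of 0.1 RPKM, with 50% of KO and 55.6% of wildtype cells, since 3 wildtype cells lay at 0.268 to 0.526 RPKM. KO cells averaged 2.77 ± 3.45 and wildtype cells 1.47 ± 2.65 on the log2 scale. The difference was 1.30, but 0.70 without KO cell 3 and 2.06 without wildtype cell 22. Xist, the RNA expressed from the inactive X chromosome of female cells, was under 1 RPKM in 5 of 12 KO and 7 of 9 wildtype cells. The genotypes thus differ in this share, and its part in the members' differences was not tested. Over the cells with Xist under 1 RPKM the Hoxa9 difference was 0.10. Over the 15 cells KO cells averaged 2.98 ± 3.02 and wildtype cells 1.89 ± 2.90. That difference was 1.09, but 0.31 without KO cell 7 and 2.03 without wildtype cell 22. The KO cells with Hoxa9 were cells 2 to 7, which include the 4 cells with the most detected genes.

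Cbfb had the lowest mean log2 level of the members in both genotypes and, on the deposited scale, the smallest difference. It was at 0 to 26.8 RPKM with a median of 0.610 RPKM in KO cells, and at 0 to 31.9 RPKM with a median of 0.355 RPKM in wildtype cells. Wildtype cell 22 at 31.9 RPKM and KO cells 11 and 4 at 26.8 and 23.5 RPKM were highest. It was detected in 6 of 12 KO cells (50%, 21.1 to 78.9%) and in 3 of 9 wildtype cells (33.3%, 7.49 to 70.1%). In a further 5 KO and 4 wildtype cells it was above 0 but below 1 RPKM, and at a cutoff of 0.1 RPKM the shares were 50% in KO and 55.6% in wildtype cells. KO cells averaged 1.53 ± 2.00 and wildtype cells 1.42 ± 1.99 on the log2 scale, with a difference of 0.12 over all cells and -0.06 over the 15 (-0.48 to 0.49 with any 1 of them left out).

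**Figure D2:**
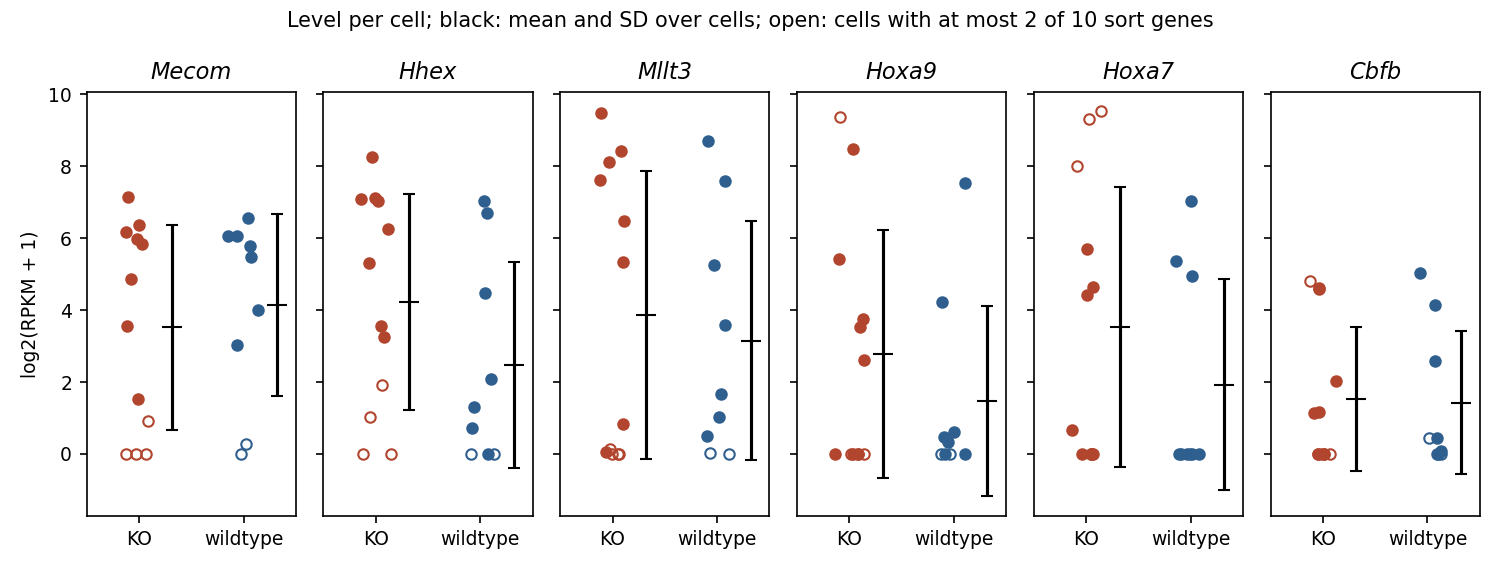
log2(RPKM + 1) of each member in single KO cells (red, left) and wildtype cells (blue, right), with the mean and SD over cells in black. Open points are the 6 cells with at most 2 of 10 sort genes. The genotypes overlap for every member, and the 3 highest Hoxa7 points are open.

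In order of mean level, Hhex led in KO cells (4.23), followed by Mllt3 (3.87), Mecom (3.53), Hoxa7 (3.52), Hoxa9 (2.77) and Cbfb (1.53). In wildtype cells Mecom led (4.14), followed by Mllt3 (3.15), Hhex (2.48), Hoxa7 (1.93), Hoxa9 (1.47) and Cbfb (1.42). RPKM is per length, so these levels can be set side by side, but each step between neighbours in either order was smaller than the SD over cells of both genes. Of the 6 members, 3 (Hhex, Hoxa7 and Hoxa9) were higher in KO cells by 1 or more on the log2 scale and 0 were lower by as much. The comparison ran over 3867 genes, each detected in 50% or more of the KO or of the wildtype cells. Of these 11.4% were higher by 1 or more in KO cells and 28.0% were lower by 1 or more, with a median difference of -0.36. All 6 members were among the compared genes, Hoxa9, Hoxa7 and Cbfb only through the KO cells, where they were exactly at the limit of 50%. Since the members were chosen with this contrast known, nothing is read from their count. The split also turns with the scaling. Shifting every cell to an equal median of the compared genes moved each KO minus wildtype difference by 1.16, and then 42.2% of genes were higher and 6.2% lower by 1 or more. Under that shift Mecom was at 0.55 in place of -0.61 and Cbfb at 1.27, while the order of the members' differences is unaffected by it. Scaling to equal total RPKM gave 1.27 for Hoxa9, 1.72 for Hhex and -0.64 for Mecom. No member had genotypes that do not overlap, a separation seen in 0.0517% of the compared genes. In the 15 cells, 5178 genes were compared, of which 22.2% were higher and 20.4% lower by 1 or more, with a median of 0.06. Hoxa7 was not among them.

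**Figure D3:**
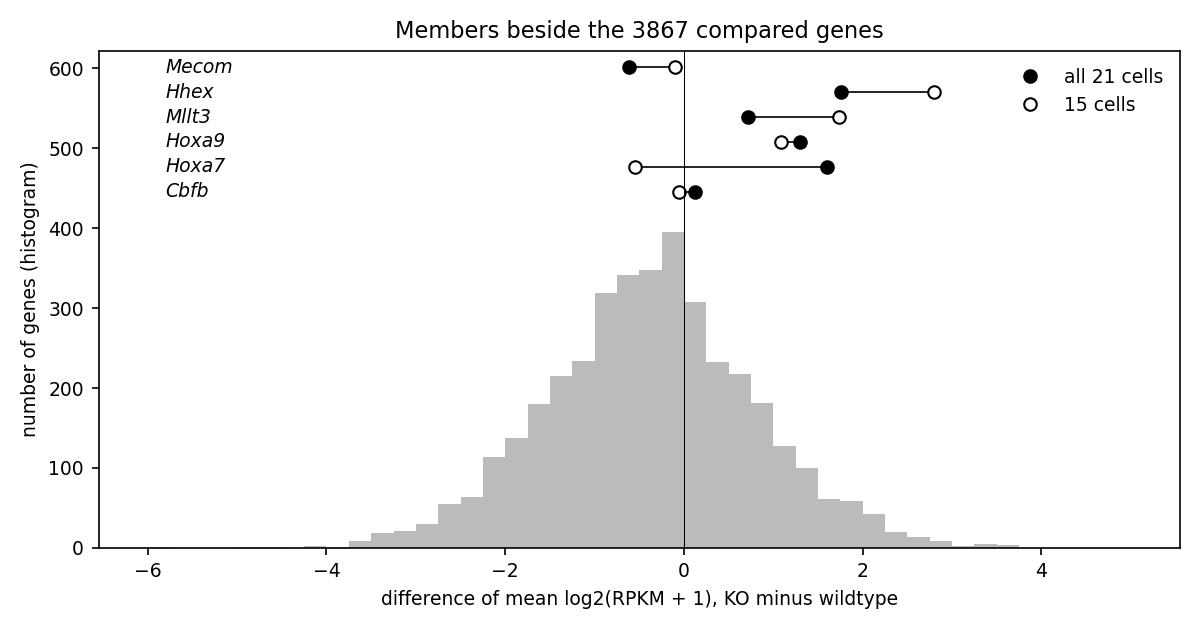
Difference of mean log2(RPKM + 1), KO minus wildtype, for each member with all 21 cells (filled) and with the 15 cells that carry 4 or more sort genes (open), above the histogram of all compared genes with all 21 cells. Hoxa7 lies at 1.60 with 21 cells and -0.55 with 15 (0.21 without wildtype cell 15), and Hhex lies at 1.76 and 2.80.

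Single cells held from 0 to all 6 of the members. KO cells held 1 to 6 detected members with a median of 3, and wildtype cells 0 to 6, also with a median of 3. All 6 were detected in KO cells 4 and 5 and wildtype cells 18 and 22, and none in wildtype cells 13 and 14. Over the 21 cells the number of members went with the number of detected genes (Spearman rho 0.63), and over the 15 cells rho was 0.65. The relation was not the same for each member. Over the 15 cells rho with the number of detected genes was 0.74 for Cbfb and 0.68 for Hoxa9, but 0.07 for Mecom, 0.10 for Hhex, 0.30 for Mllt3 and 0.33 for Hoxa7. These and the following correlations are over cells, which are not replicates of a genotype, and are descriptions with no p. Those over the 21 or the 15 cells mix both genotypes.

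**Figure D4:**
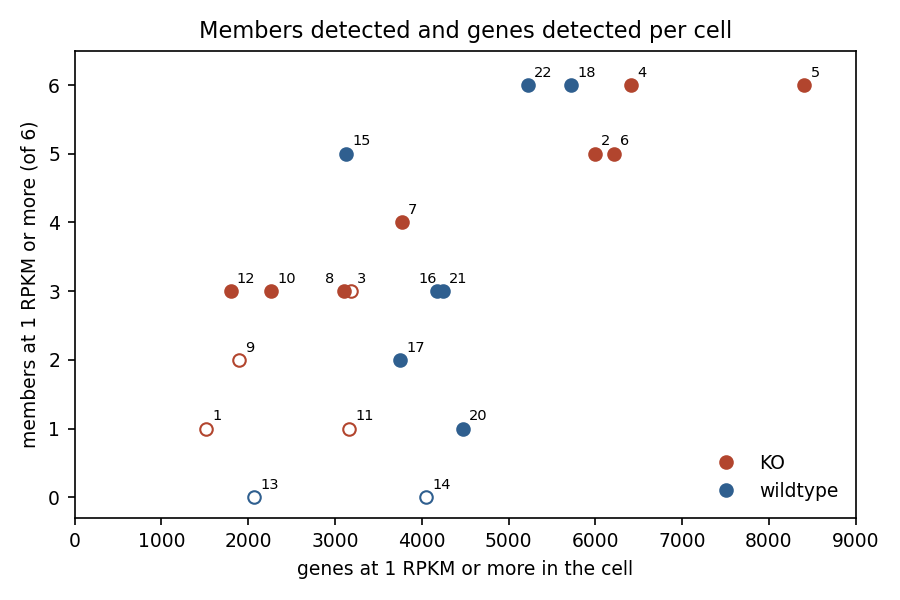
Number of members at 1 RPKM or more against the number of all genes at 1 RPKM or more, 1 point per cell with its number, KO red and wildtype blue. Open points are the cells with at most 2 of 10 sort genes. The 4 cells with all 6 members have 5222 to 8408 detected genes, and wildtype cells 13 and 14 have 0 members at 2067 and 4051 genes.

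Mecom, Hhex and Mllt3 were often, but not always, found in the same cells. All 3 were detected together in 11 of 21 cells, and none of them in 4 cells, KO cells 1 and 11 and wildtype cells 13 and 14. Each of the 12 cells with Mllt3 also had Mecom, and 11 of them had Hhex. From the detected shares alone 8.57 cells would be expected for each of these pairs. Mecom and Hhex shared 13 cells, with 10.7 expected. These expected counts pool the 6 cells with the other 15. Among the 15, Mecom was detected in all 15, Hhex in 13 and Mllt3 in 12. The overlaps with Mecom are there fixed by these counts, and that of Hhex with Mllt3 has little room to vary. Nothing is therefore read from the counts above expectation. Cells other than the 11 with all 3 genes and the 4 with none held some of them, such as Hhex without Mecom in KO cells 3 and 9. Over 21 cells Spearman rho was 0.79 for Hhex and Mllt3, 0.65 for Mecom and Mllt3 and 0.62 for Mecom and Hhex. Among 3866 genes ranked by rho with Mecom, Mllt3 came at place 66 and Hhex at 103. Among those ranked by rho with Hhex, Mllt3 came at place 3. The cells fall into separate sets, however, and over the 15 cells with sort genes rho was 0.65 for Hhex and Mllt3 (Pearson r 0.58), but 0.10 for Mecom and Mllt3 and 0.24 for Mecom and Hhex. The relation of Mecom to both others over 21 cells thus rests on the 6 cells. For Hhex and Mllt3, rho given the number of detected genes was 0.65 over the 15 cells, and leaving out 1 of them gave at least 0.56. It was 0.81 within the 8 KO cells and 0.29 within the 7 wildtype cells, a difference that was not tested. Wildtype cell 15, with Hhex at 129 RPKM and Mllt3 at 1.06 RPKM, and wildtype cell 21, with 3.22 and 191 RPKM, lay farthest from the shared course.

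The pairs of Cbfb with the Hox genes depended on the cells used. For Hoxa9 and Cbfb rho was 0.53 over 21 cells (0.15 given the number of detected genes) and 0.81 over the 15 (0.63). For Hoxa7 and Cbfb it was 0.13 over 21 cells (0.26 given the number of detected genes) and 0.72 over the 15 (0.75), and over 21 it was -0.32 within KO and 0.79 within wildtype cells, a contrast that was not tested. For the cluster neighbours Hoxa9 and Hoxa7 rho was 0.39 over the 15 cells and 0.29 over 21. They were detected together in 5 of 21 cells, Hoxa9 alone in 3, Hoxa7 alone in 4 and neither in 9. Of all 15 pairs, 14 had a rho above 0 over the 21 cells, with a median of 0.30, and Hoxa7 with Mllt3 was the exception at -0.14. With 3866 compared genes the median rho was 0.25 for Hoxa9, -0.07 for Hoxa7, 0.20 for Mecom, 0.26 for Cbfb, 0.14 for Hhex and 0.25 for Mllt3. Nothing is therefore read from the count of pairs above 0. Within KO cells 10 of 15 pairs were above 0 with a median of 0.06, and within wildtype cells 15 of 15 with a median of 0.58, a difference that was not tested.

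**Figure D5:**
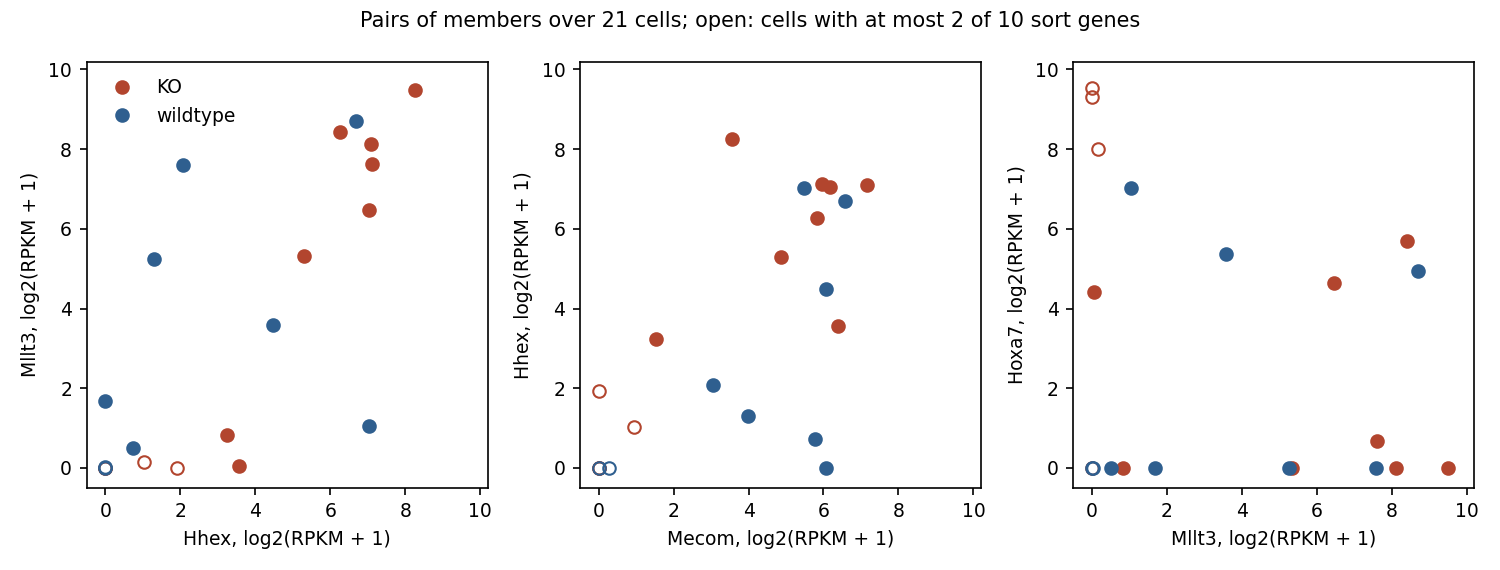
log2(RPKM + 1) of 3 pairs of members over 21 cells, KO red and wildtype blue, open for the cells with at most 2 of 10 sort genes. Hhex and Mllt3 go together among filled points (rho 0.65), Hhex shows a weaker course with Mecom once open points are left aside (rho 0.24), and the highest Hoxa7 cells sit at Mllt3 values near 0.

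The genes most like each member over the 21 cells, by Spearman rho among the compared genes, were named with predicted genes and pseudogenes left aside. For Mllt3 they were Ecscr, an endothelial surface protein, at 0.88, the mitochondrial protein gene Gbas at 0.86 and Bcat2, a branched-chain amino acid transaminase, at 0.85. Over the 15 cells these were 0.74, 0.82 and 0.80. For Hhex they were Itfg1 at 0.82, Mllt3 itself at 0.79 and Riok1, an atypical kinase of ribosome assembly, at 0.78, and over the 15 cells these were 0.74, 0.65 and 0.53. For Mecom they were Smc5, of the SMC5-SMC6 complex, at 0.84, the membrane protein gene Serinc1 at 0.82 and Ppp3ca, the calcineurin catalytic subunit, at 0.82. Over the 15 cells these were 0.65, 0.71 and 0.55. At the other end, Gpc3 had the lowest rho of 3866 genes with both Hhex (-0.67) and Mllt3 (-0.73), and over the 15 cells these were -0.28 and -0.36.

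Hoxa9 was most like Chmp7, an ESCRT-III protein, at 0.87, Mtx1, of mitochondrial outer membrane import, at 0.86 and Tln1, talin, at 0.85, and over the 15 cells 0.89, 0.81 and 0.79. Cbfb was most like Igf2bp1, a fetal RNA-binding protein, and Ppm1g, a phosphatase, both at 0.82, and Srsf2, a splicing factor, at 0.79, and over the 15 cells 0.75, 0.73 and 0.70. Hoxa7 had the weakest likeness, with Rpsa, a ribosomal protein, at 0.64, Gsk3b, a kinase, at 0.64 and Nrep at 0.57. Over the 15 cells these 3 were at 0.37, 0.50 and 0.39. Rpsa can share reads with near-identical copies and is uncertain.

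Few other Hox genes were detected. Of 25 further genes of the 4 Hox clusters looked for, 15 are listed and 0 reached 1 RPKM in enough cells to be compared. The most widely detected were Hoxa10, in 3 KO cells and 1 wildtype cell, and Hoxb2, in 2 cells of each genotype. Hoxa10, next to Hoxa9 on its other side, was at 9.69, 16.4 and 60.6 RPKM in KO cells 4, 5 and 6 and at 21.4 RPKM in wildtype cell 18. All 4 of these cells had Hoxa9, but KO cells 3 and 7 and wildtype cell 22, where Hoxa9 was highest, had Hoxa10 at 0. Hotairm1, a long non-coding RNA at the other end of the HoxA cluster, was detected in 3 KO and 4 wildtype cells.

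Of the MEIS cofactors of HOX proteins, 2 were compared. Meis2, a homeodomain partner of HOX proteins, reached 1 RPKM in 6 cells of each genotype, with a difference of -2.41 that was -1.01 without the 6 cells. Meis1, at -1.28 (-0.65 without the 6 cells), stands in the first 24 rows of the table, ahead of its alphabetical order, which were not checked here.

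For the partners of CBFB and MECOM part of the values stand in those rows. Of 10 listed genes of the core binding factor list, 4 were compared. In KO cells 3 of them were lower by 1 or more, against 28.0% of all compared genes, with a median of -1.31 (-0.15 with cells shifted to an equal median). One of the 3, Runx1, the DNA-binding partner of CBFB, was at -2.70 (-3.29 without the 6 cells) and stands in the first 24 rows. Cbfa2t2, a corepressor, reached 1 RPKM in 3 KO and 7 wildtype cells, with a difference of -1.48 (-1.61 without the 6 cells). Hdac1 was at -1.13 (-0.14 without the 6 cells) and Hdac2, both histone deacetylases, at -0.60 (-2.02). Runx1, Cbfa2t2 and Hdac2 were compared only through the wildtype cells, where they are higher, so nothing is read from the count of this list. Of 9 listed MECOM partners and related genes, 4 were compared and 2 were lower by 1 or more, Hdac1 and Gata2. Their median of -0.93 changed sign to 0.23 with cells shifted to an equal median. Gata2, at -1.97 (-2.88 without the 6 cells), also stands in the first 24 rows and was compared only through the wildtype cells. The corepressors Ctbp1 and Ctbp2, which EVI1 is known to recruit, were at -0.73 and 0.52, and at -0.25 and 0.04 without the 6 cells.

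Of 21 genes of the complexes that MLLT3 joins, all 21 are listed and 8 were compared, 1 higher and 1 lower in KO cells by 1 or more, with a median of 0.24 (1.40 with cells shifted to an equal median). They were the paralogous cyclins of the elongation kinase P-TEFb. Ccnt2 reached 1 RPKM in 6 KO cells and 1 wildtype cell, with a difference of 1.95 (3.06 without the 6 cells). Ccnt1 did so in 7 KO and 8 wildtype cells, with a difference of -1.66 (-1.21 without the 6 cells). Kmt2a, which encodes the MLL1 methyltransferase that acts upstream of Hoxa9, was detected in 6 KO and 2 wildtype cells, with a difference of 0.79 (0.32 without the 6 cells). Ash2l, a subunit of its complex, was at 0.69 (0.53). Ccnt2, Kmt2a and Ash2l were compared only through the KO cells, where they are higher. Among 13 listed homeobox and related genes of early blood and endothelium, 2 were compared, 1 of them higher by 1 or more in KO cells, with a median of 1.19 (2.35 with cells shifted to an equal median). Zeb2, a zinc finger homeobox repressor needed in embryonic HSCs, was detected in 7 KO and 2 wildtype cells, with a difference of 1.76 (3.03 without the 6 cells), and Adnp was at 0.62 (0.26). Zeb2 and Adnp were also compared only through the KO cells, so nothing is read from the counts of either list.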

How the data were processed

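RNA of single T1 pre-HSCs was amplified by template switching, per the labels, while their extract protocol cites another single-cell method. The authors' deposited table gives RPKM per gene and cell. The submitters' processing notes name Cufflinks 2.1.0 and mm10. No aligner, annotation or strand setting is given in the sources used here, and depth is unknown. RPKM shares 1 total per cell, so a few high genes lower the rest. The adult HSC table names no unit and was read as FPKM, because the submitters' processing notes name Cufflinks, and 2 of its columns share 1 cell name and were not used. It holds 0 of the members.

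Levels were compared as KO minus wildtype differences of mean log2(RPKM + 1). The pseudocount of 1 makes changes of low genes look smaller. A gene was compared where 50% or more of the KO or of the wildtype cells held 1 RPKM. A difference of 1 or more is a rule of size, not a test. Spearman correlations were computed with pandas 2.3.3 and exact intervals with SciPy 1.17.1. The code that computes differences was checked on simulated data with known differences. No test of the genotypes was made. Members, lists and the naming rule (all compared genes of a list or, beyond 4, those with the 4 largest differences, and the 3 most correlated genes of each member) were chosen with earlier results of these data known. Gpc3, Hoxa10, Hoxb2 and Hotairm1, and the 6 cells set apart, were chosen after their values were seen. Promoter windows come from RefSeq tables, in which all 6 members matched by symbol. Some results on HOX cofactors are not reported here.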

Additional observations from a re-analysis of the deposited data

How the results depend on the processing

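No paired analysis was possible because KO and wildtype cells share no replicate number. The differences of Hoxa9, Mecom, Cbfb, Hhex and Mllt3 moved by less than the SD over cells under every alternative run, though Hoxa9 was at 0.10 over the cells with Xist under 1 RPKM, Mecom changed sign to 0.31 over those cells and to 0.55 with equal medians, and Cbfb to -0.22 in the shared range, -0.26 over those cells and -0.06 without the 6 cells with few sort genes (alternatives were pseudocounts of 0.1 and 10, equal totals, equal medians, medians over cells, cells in the shared range of detected genes, cells with Xist under 1 RPKM, wildtype cell 19 added, and each cell left out). Hoxa7 also moved by less than that SD, which is wide over single cells and does not show that a difference is steady. Over the cells with Xist under 1 RPKM Hhex was at 2.35, Mllt3 at 2.08 and Hoxa7 at 0.66. The Hoxa7 difference reversed to -0.33 over the 5 KO and 9 wildtype cells in the shared range of 2067 to 5716 detected genes and to -0.55 without the 6 cells, an alternative added after seeing the data. Leaving out single cells gave 0.70 to 2.06 for Hoxa9, 1.05 to 2.23 for Hoxa7, -1.12 to -0.28 for Mecom, -0.18 to 0.57 for Cbfb, 1.39 to 2.32 for Hhex and 0.21 to 1.42 for Mllt3.

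Of the compared genes, 442 were higher in KO cells by 1 or more. This count was 156 with a pseudocount of 10, 682 with medians over cells, 1332 over cells with Xist under 1 RPKM, 1149 without the 6 cells, 868 with no filter, 1630 with equal medians (added after seeing the data), and 274 (without KO cell 5) to 567 (without wildtype cell 18) without single cells. It was 290 without KO cell 4. The count lower by 1 or more, 1082, was 426 with a pseudocount of 10, 240 with equal medians and 892 to 1637 without single cells, the last without wildtype cell 13. The detected share of Hoxa7 in KO cells was 20.0% in the shared range. Without the 6 cells Mecom was detected in 100% of cells of both genotypes and Hhex in 100% of KO cells. For Mecom and Hhex rho was 0.42 within wildtype cells and 0.24 without the 6 cells, for Mecom and Mllt3 0.10 without them, and for Hhex and Mllt3 0.90 within KO cells, 0.61 within wildtype cells and 0.65 without the 6. The cause was not tested. Depth is unknown, so a value of 0 does not show absence of the RNA.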

Other observations

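Antisense and intergenic RNAs beside the members were listed in both tables, which were not set against each other. Mecomos, antisense to Mecom, was above 0 in 16 and at 1 or more in 13 of 25 adult HSCs in the units of that table, with a median of 1.05 and a maximum of 9.03 in cell 26. In T1 pre-HSCs it reached 1 RPKM in 2 of 12 KO cells (5 and 10) and 2 of 9 wildtype cells (15 and 18), with maxima of 3.91 and 3.99 RPKM, and each of these 4 cells also had Mecom. Of the HoxA cluster RNAs in adult HSCs, Hoxaas3 was above 0 in 3 of 25 cells with a maximum of 17.4, Hotairm1 only in cell 26 at 135, and Hoxaas2, Hoxa11os, Hottip and Halr1 in 0 of 25.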
